A study of Mus musculus with 139 samples.

Results

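The kidney was compared with 9 other organs of the same mice by sequencing of small non-coding RNA. The 14 kidney libraries were chosen by their label, from 139 samples listed in a mouse tissue atlas, and were set against 116 libraries of brain, heart, skeletal muscle, lung, liver, pancreas, intestine, spleen and bone marrow, so that 130 libraries were used. All mice were C57BL/6J, an inbred laboratory strain, of WT genotype and 3 months old, and no treatment was named for any group. Animals 1 to 10 were female and animals 11 to 14 male, as the column names of the count table give it. One animal gave 1 kidney library. The library names carry 3 pool codes. Kidney, lung, liver, pancreas and spleen of animals 1 to 10 were in pool N467, the brain, heart, muscle, intestine and bone marrow of those animals in pool N469, and every organ of animals 11 to 14 in pool N541. Sex, animal set and pool are therefore the same split within kidney and cannot be told apart. The tissue was the whole organ, so a result can come from any of its cell types, and fewer cells of a type and less RNA per cell cannot be told apart.

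MicroRNAs (miRNAs) are short RNAs cut from hairpin transcripts. Each guides a silencing complex to messenger RNAs that pair with its seed, the bases near its 5′ end, so miRNAs with 1 seed can share targets. In the kidney, filtration takes place in glomeruli, and tubules lined by a single layer of epithelium with many mitochondria then take up most of the filtered water and salt. The organ forms in the posterior trunk, where Hox genes that specify position along the body axis are expressed, and the Mir10 and Mir196 genes lie inside the Hox clusters. The Mir200 family keeps epithelial cells from changing to a mesenchymal state, the Mir30 family is known from tubules and podocytes, and Mir192 and Mir194 are known from kidney, liver and gut epithelium.

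The mature miRNAs on which the kidney results turn are printed 5′ to 3′ from the RefSeq tables of GRCm38.p6, with the seed, bases 2 to 8, in capitals. Of 94 named miRNA genes, 82 had a mature sequence in these tables. The Hox-encoded miRNAs come first, since they took most kidney counts, and each pair differs by 1 base outside the seed: U12A from miR-10a-5p to miR-10b-5p and A12C from miR-196a-5p to miR-196b-5p, counted from the 5′ end.
mmu-miR-10a-5p: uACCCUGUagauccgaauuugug
mmu-miR-10b-5p: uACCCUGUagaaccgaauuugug
mmu-miR-196a-5p: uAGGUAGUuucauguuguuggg
mmu-miR-196b-5p: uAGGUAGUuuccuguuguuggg
The Mir30 sequences are shown because this family took the largest share of any list outside Mir10a and Mir10b (26.3% of the remaining kidney counts), and miR-30a-5p and miR-30e-5p differ by C13U alone.
mmu-miR-30a-5p: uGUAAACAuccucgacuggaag
mmu-miR-30e-5p: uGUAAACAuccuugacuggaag
mmu-miR-30c-5p: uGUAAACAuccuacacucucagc
The next set shows a shared seed whose 2 carriers, miR-192-5p and miR-215-5p, differed widely in kidney counts, with miR-194-5p, whose genes lie beside them.
mmu-miR-192-5p: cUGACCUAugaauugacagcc
mmu-miR-215-5p: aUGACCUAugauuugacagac
mmu-miR-194-5p: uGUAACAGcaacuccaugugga
The Mir200 family is shown because it divides into 2 seeds that differ at 1 base, AAUACUG in the first 3 sequences and AACACUG in the last 2.
mmu-miR-200b-3p: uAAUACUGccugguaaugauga
mmu-miR-200c-3p: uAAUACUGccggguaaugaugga
mmu-miR-429-3p: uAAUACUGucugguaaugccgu
mmu-miR-200a-3p: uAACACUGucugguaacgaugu
mmu-miR-141-3p: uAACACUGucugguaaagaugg
The last 2 are tubule-list miRNAs that were high in kidney without sharing a seed with the families above.
mmu-miR-204-5p: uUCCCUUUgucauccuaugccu
mmu-miR-190a-5p: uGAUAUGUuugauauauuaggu

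Kidney libraries held 301536 to 14943881 counts. Those of animals 1 to 10 lay between 9393931 and 14943881, and those of animals 11, 12, 13 and 14 held 1617978, 359916, 301536 and 2663695 counts. The other organs' libraries held 13795 to 33186859 counts, and 7 of them were under 100000. Between 501 and 1232 genes had a count in a kidney library. Each of the 14 kidney libraries had another kidney library as its closest by rank correlation across genes (rho from 0.877 to 0.988), which is a description, since genes are not independent. The labels do not say whether any tissue was pooled over animals, and no kidney library repeated another within counting noise.

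Against the mean of the 9 organs, 1063 genes were tested with edgeR's quasi-likelihood test in a model of organ and pool. Kidney was higher in 169 genes (15.9% of those tested) and lower in 214 (20.1%), where a call needed a log2 difference of at least 1 and a p below 0.05 after Benjamini-Hochberg adjustment. The median log2 difference of all genes tested was -0.29. Counts of list members called against the 9 organs stand beside these shares of all genes. The lists were chosen with earlier results of these data known. Levels are given as CPM, counts scaled to a common library total, after TMM scaling, which corrects library totals for the few RNAs that dominate a library. TMM factors of kidney libraries ran from 0.402 to 0.833, so scaled values of 1 kidney library can sum past the nominal total, and Mir10a and Mir10b are given as percent of counts. Within pool N467, kidney was higher than the mean of lung, liver, pancreas and spleen in 223 of 906 genes tested (24.6%) and lower in 100 (11.0%), with a median of 0.15 over all genes. The comparisons share the kidney libraries of animals 1 to 10, so the second is a check for pool and not independent evidence.

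The Hox-encoded Mir10a and Mir10b took most of the kidney counts. Mir10a took between 19.2% and 37.2% of kidney counts, with a median of 29.2%. In animals 11 to 14 its shares were 34.4%, 33.1%, 34.5% and 37.2%. Mir10b took between 25.0% and 39.4%, with a median of 33.2%, and its shares in animals 11 to 14 were 27.5%, 28.8%, 27.3% and 28.3%. Together they took 61.6 ± 4.54% (SD, n = 14) of kidney counts and at least 52.3% in each library, while the median of the other libraries was 7.52%. The lowest kidney share of Mir10a lay above every library of 8 organs, and 4 lung libraries passed it, up to 25.2% in lung of animal 6. The lowest kidney share of Mir10b also lay above every library of 8 organs, and 2 muscle libraries passed it, up to 60.5% in muscle of animal 2. Both genes were higher in kidney than the mean of the other organs, by 4.24 ± 0.32 (SE) for Mir10a and 5.37 ± 0.40 for Mir10b on the log2 scale (adjusted p = 3.65e-24 and 2.12e-24, edgeR).

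**Figure D1:**
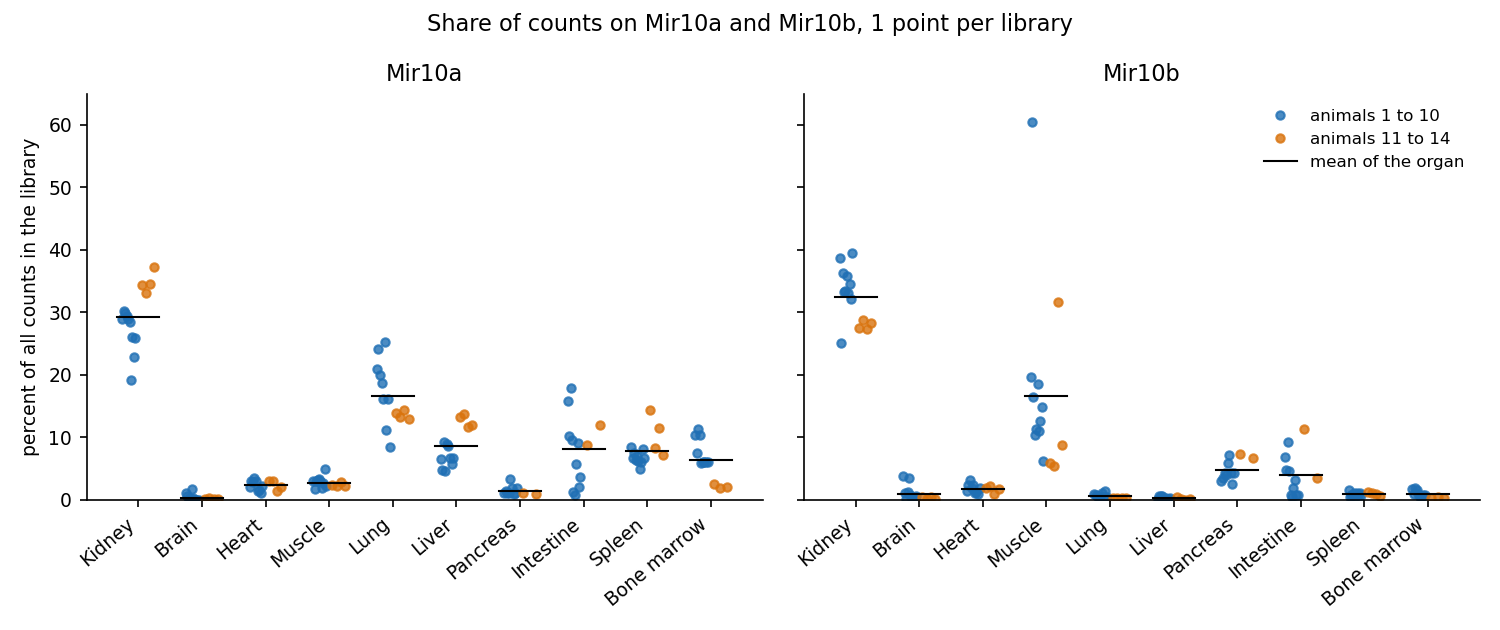
Percent of each library's counts taken by Mir10a and Mir10b in the 10 organs. Each point is 1 library (blue for animals 1 to 10, orange for animals 11 to 14) and the black bar is the organ's mean; the kidney points lie between 19.2% and 37.2% for Mir10a and between 25.0% and 39.4% for Mir10b.

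In kidney, as in heart, Mir10a and Mir10b were near balance. Mir10a lies 993 bp from Hoxb4 (chr11:96317165-96317274, plus strand, GRCm38) and Mir10b in an intron of Hoxd3 and Hoxd4 (chr2:74726070-74726137, plus strand). The log2 ratio of their counts within a kidney library was -0.16 ± 0.39 (SD, n = 14). Heart had 0.40 ± 0.26 (from -0.18 to 0.86), which overlapped kidney. The other organ means were 1.17 in intestine, 2.87 in bone marrow, 3.09 in spleen, 4.84 in lung, 5.30 in liver, -1.40 in brain, -2.30 in muscle and -1.77 in pancreas. Mir10a was the higher of the pair in 5 of 14 kidney libraries. In animals 1 to 10 the ratio was -0.34 ± 0.28 and ran from -0.79 to 0.27, and in animals 11 to 14 it was 0.32 ± 0.08 and ran from 0.20 to 0.40. The difference of 0.66 passed a two-sided exact permutation test (p = 0.003996, adjusted p = 0.00999 over the 5 organs of pool N467). The ratio differed in the same direction in lung by 0.89 (adjusted p = 0.00999) and liver by 2.03 (adjusted p = 0.042), and in the opposite direction in pancreas by -1.27 (adjusted p = 0.0455), by the same exact test. In spleen it was 0.38 higher and did not pass (adjusted p = 0.174).

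Mir196a-1, Mir196a-2 and Mir196b, the other Hox-encoded miRNAs, had their highest means in kidney, muscle and bone marrow. Mir196b, in an exon of Hoxa9 (chr6:52230081-52230165, minus strand), had 338 CPM in the lowest, 533 in the median and 769 in the highest kidney library. Muscle reached 172 to 340 CPM and bone marrow 38.2 to 102, while no library of the other organs passed 8.99. All kidney libraries lay above all libraries of 8 organs, and 13 of 14 lay above the highest muscle library. With liver listed at 0 in all 13 libraries, kidney was at least 4466-fold higher than liver, taken against 3 counts over all liver libraries. The log2 difference from the 9 organs was 8.51 ± 0.37 (adjusted p = 1.09e-42, edgeR), or 8.20 with liver at that bound. Mir196a-2, in an intron of Hoxc5 (chr15:102973350-102973434), had 127 to 297 CPM in kidney with a median of 198, and muscle had 215 to 972. These ranges overlapped, and the kidney minus muscle difference of -0.88 did not pass (adjusted p = 0.0906, edgeR). Mir196a-1, 6192 bp from Hoxb9 (chr11:96265164-96265265), had 64.2 to 192 CPM in kidney with a median of 117. Its level in kidney was at least 2876-fold that in brain and at least 986-fold that in liver, where no count fell on it (14 and 13 libraries). Mir196a-1 and Mir196a-2 give the same mature miRNA, and how reads matching both were assigned is not given in the sources used here. All 5 Hox-encoded members were called higher than the 9 organs under each scaling tried and within pool N541 alone, and all 5 within pool N467.

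The Mir30 family was the largest family outside Mir10. Its 6 genes took 9.98 ± 4.11% of kidney counts, and Mir30a alone took 19.7% of those outside Mir10a and Mir10b on average. Mir30a (chr1:23272269-23272339) had 53168 CPM in the lowest, 144480 in the median and 255014 in the highest kidney library. Kidney lay entirely above 4 organs and overlapped the other 5, among them liver and lung, from which it differed by 0.27 and 0.16 on the log2 scale without passing the test (adjusted p = 0.615 and 0.766, edgeR). Its difference from the mean of the 9 organs was 2.29 ± 0.28 (adjusted p = 7.11e-12). Mir30e, in an intron of Nfyc (chr4:120772606-120772697), had 11856 to 51495 CPM with a median of 19060 and was 1.92 ± 0.27 higher (adjusted p = 7.63e-10). Heart had the higher mean of Mir30e, and the difference from heart was -0.05. Mir30c-2, which shares its mature sequence with Mir30c-1, had 3175 to 8209 CPM with a median of 4314 and was 1.78 ± 0.22 higher (adjusted p = 1.21e-11). In all, 5 of 6 members were called higher, with a list median of 1.78 against -0.29 for all genes, and Mir30d (0.93) was not. With library totals left unscaled 1 member was still called, with a median of 0.71. Within pool N467, 5 of 6 members were called, and 0 of 6 with unscaled totals.

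Mir192, Mir194-1, Mir194-2 and Mir215 lie in 2 clusters, and in kidney the chromosome 19 cluster had the higher counts. Mir192 (chr19:6264844-6264932) and Mir194-2 (chr19:6264643-6264728) form 1 cluster, and Mir215 (chr1:185313581-185313692) and Mir194-1 (chr1:185313319-185313385) the other. Mir192 had 20992 CPM in the lowest, 30175 in the median and 55782 in the highest kidney library. These values lay above every library of 7 organs, and the means of liver and intestine were higher. Mir192 was 4.07 ± 0.25 above the mean of the 9 organs on the log2 scale (adjusted p = 3.07e-31, edgeR), but 2.43 below liver and 1.30 below intestine (adjusted p = 3.07e-10 and 0.00281). Mir215 had 0 to 11.2 CPM in kidney with a median of 4.66, while intestine had 11442 to 240008. It was lower than the mean of the 9 organs by 2.22 ± 0.59 (adjusted p = 0.00108), and kidney was not the organ with the lowest mean, since spleen and pancreas were below it. Within pool N541 alone Mir215 was not called.

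Within single libraries, where scaling has no part, the log2 ratio of Mir192 to Mir215 was 12.60 ± 0.76 in the 10 kidney libraries with more than 3 counts of Mir215 (from 11.39 to 14.18), all from animals 1 to 10. Kidneys 11 and 14 had 3 counts of Mir215 each and kidneys 12 and 13 had 0, so that the log2 ratio was at least 11.03 and 10.80 in the last pair, taken against 3 counts. By the same minimum liver had 12.58 ± 0.75 (12 libraries) and intestine -0.43 ± 0.63, with Mir192 the higher in 3 of 12 libraries. Pancreas gave no ratio, since 10 of its 11 libraries had no count of Mir215, and the means of the other organs ran from 5.63 to 9.20. Mir194-2 exceeded Mir194-1 in 14 of 14 kidney libraries, with a log2 ratio of 1.13 ± 0.12 (from 0.87 to 1.25). The same ratio was 0.80 ± 0.31 in liver and -3.84 ± 0.19 in intestine, where Mir194-1 was higher in 12 of 12. Kidney and liver overlapped in both ratios, and kidney and intestine did not, with the kidney bounds counted at their lowest. The 2 Mir194 genes give the same 5p miRNA, so their separate counts rest on how the authors' counting divided reads. Mir194-2 had 235 to 1019 CPM in kidney with a median of 462, and Mir194-1 103 to 518 with a median of 201. Both were called higher than the 9 organs (4.07 ± 0.28 and 3.13 ± 0.25).

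**Figure D2:**
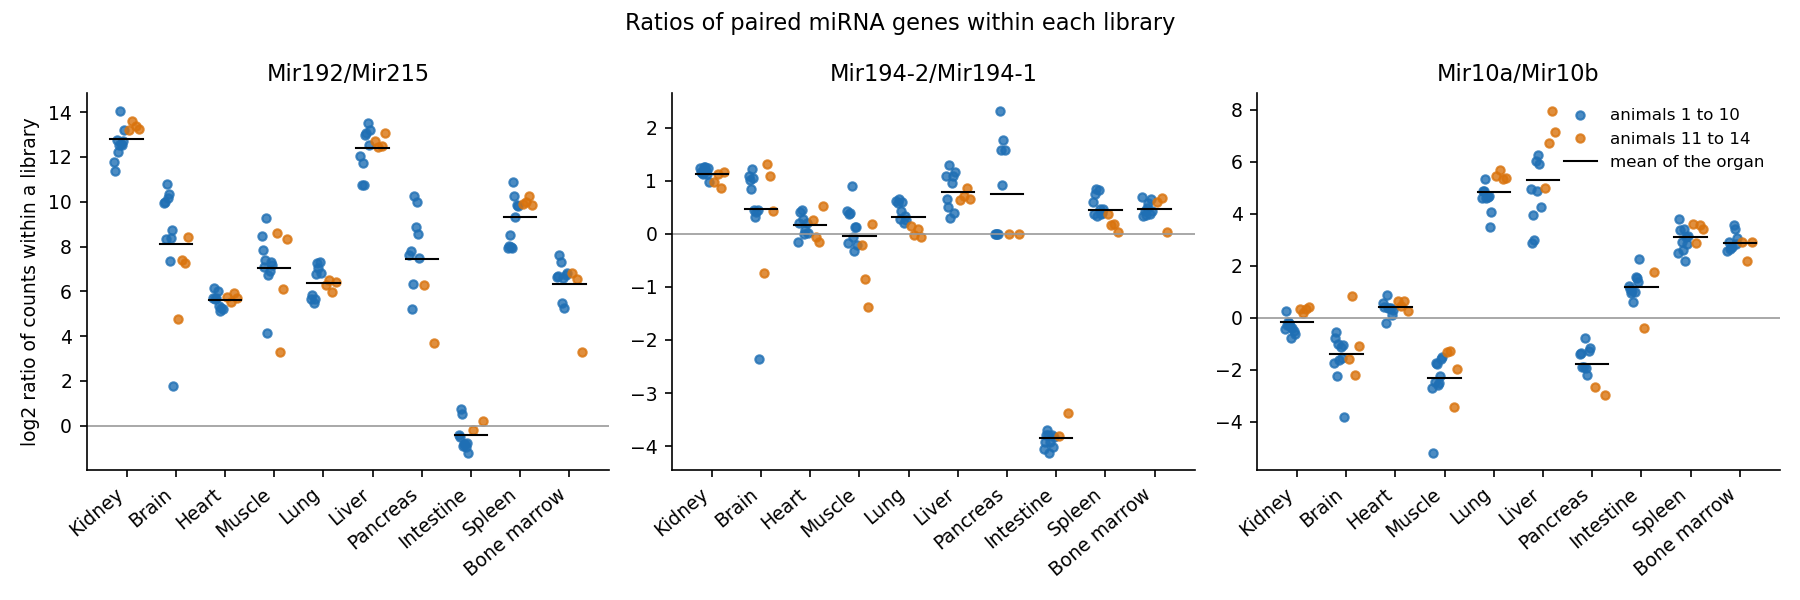
Log2 ratio of counts within each library for Mir192 to Mir215, Mir194-2 to Mir194-1 and Mir10a to Mir10b, with 0.5 added to each count. Points are libraries (blue for animals 1 to 10, orange for 11 to 14), black bars organ means; in the first panel kidneys 11 to 14 and the pancreas rest on 3 or fewer counts of Mir215, so their height depends on the added 0.5 and on depth. Kidney points lie between 0.87 and 1.25 in the second, pancreas points at 0 in the second include libraries with no count of either gene, and the orange kidney points of the third lie between 0.20 and 0.40.

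Epithelial miRNAs of the Mir200 family were called higher in kidney for all 5 members, with a list median of 5.16. Mir200b (chr4:156055681-156055750, minus strand) had 1720 CPM in the lowest, 3788 in the median and 6353 in the highest kidney library. Kidney had the highest mean and lay entirely above 5 organs, and it overlapped pancreas and intestine, from which the differences of 0.59 and 0.88 did not pass (adjusted p = 0.422 and 0.263, edgeR). Mir200b was 5.34 ± 0.43 above the mean of the 9 organs (adjusted p = 3.78e-22). Mir200a, from the same hairpin cluster (chr4:156054896-156054985), had 1366 to 3885 CPM with a median of 1969 and was 5.18 ± 0.40 higher. Mir429, the third gene of that cluster, had 375 to 962 CPM with a median of 583 and was 5.16 ± 0.45 higher. Mir141 (chr6:124717914-124717985) and Mir200c belong to the other cluster. Mir141 had 1614 to 11564 CPM with a median of 3824, and kidney was only 4th in mean, after pancreas, intestine and lung. The differences from the 9 organs were 2.81 ± 0.40 for Mir141 and 2.18 for Mir200c. Under unscaled totals 4 of 5 members were called. Within pool N467 all 5 were called with a median of 3.18, but Mir141 went from 1.06 to -0.26 with unscaled totals.

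Other epithelial miRNAs were less even. Mir183, Mir96 and Mir182, a cluster known from sensory cells and secretory epithelia, gave 2 called higher of 3 with a median of 1.56, 0 of 3 with unscaled totals and 0 of 3 within pool N467. Of Mir203, Mir205, Mir31 and Mir375, 3 of 4 were called higher. Mir205, known from stratified and glandular epithelia, had 0 to 94.1 CPM in kidney with a median of 30.4, and all 4 libraries of animals 11 to 14 lay at or below 14.1. It was 4.40 ± 0.44 above the mean of the 9 organs (adjusted p = 4.4e-16, edgeR) and had its highest mean in kidney, but 0 organs lay entirely below it. Mir375, an islet miRNA, had 32.2 to 190 CPM in kidney, was 1.83 ± 0.33 higher than the 9 organs, and was far below pancreas (-7.74). The call was lost with unscaled totals (0.77).

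The tubule list, chosen with earlier results of these data known, gave 7 of 9 members called higher, 1 lower and a median of 2.68. Of all genes tested, 15.9% were higher and 20.1% lower. Mir204, which lies in an intron of the channel gene Trpm3 (chr19:22750605-22750672), had 166 CPM in the lowest, 383 in the median and 753 in the highest kidney library. Brain lay entirely above kidney (difference -3.65), and kidney lay above every library of 4 organs. The difference from the 9 organs was 2.68 ± 0.35 (adjusted p = 1.33e-10, edgeR), and within pool N467 kidney was above each of the 4 organs, by 1.90 over pancreas (adjusted p = 0.0208). Its paralog Mir211 was lower in kidney, by -3.79. Mir190a, in an intron of Tln2 (chr9:67236660-67236726, minus strand), had 36.2 to 335 CPM with a median of 207. In animals 11 to 14 it stood at 88.1, 43.4, 36.2 and 120 CPM, below the lowest value of animals 1 to 10 (171). Kidney had the highest mean, and the nearest organ was brain. The difference from the mean of the 9 was 3.66 ± 0.23 (adjusted p = 7.01e-30). Mir455 had 72.2 to 736 CPM with a median of 136 and was 2.85 ± 0.30 higher, with no difference passing the test from liver (0.12). Mir365-2, which shares its mature miRNA with Mir365-1, had 3.34 to 202 CPM with a median of 137 and was 1.86 ± 0.29 higher, a call lost with unscaled totals (0.68) and within pool N541 alone (1.06). Mir802 was also named, after its values were seen. It had 15.5 to 89.6 CPM in kidney, was 4.36 ± 0.39 above the 9 organs, and had higher means in pancreas, liver and intestine. Mir874, in an intron of Klhl3, is on no list. It had 154 to 1084 CPM with a median of 371, the highest mean in kidney, and a difference of 4.15 ± 0.26 (adjusted p = 3.84e-30), while that from brain (0.82) did not pass (adjusted p = 0.0829).

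**Figure D3:**
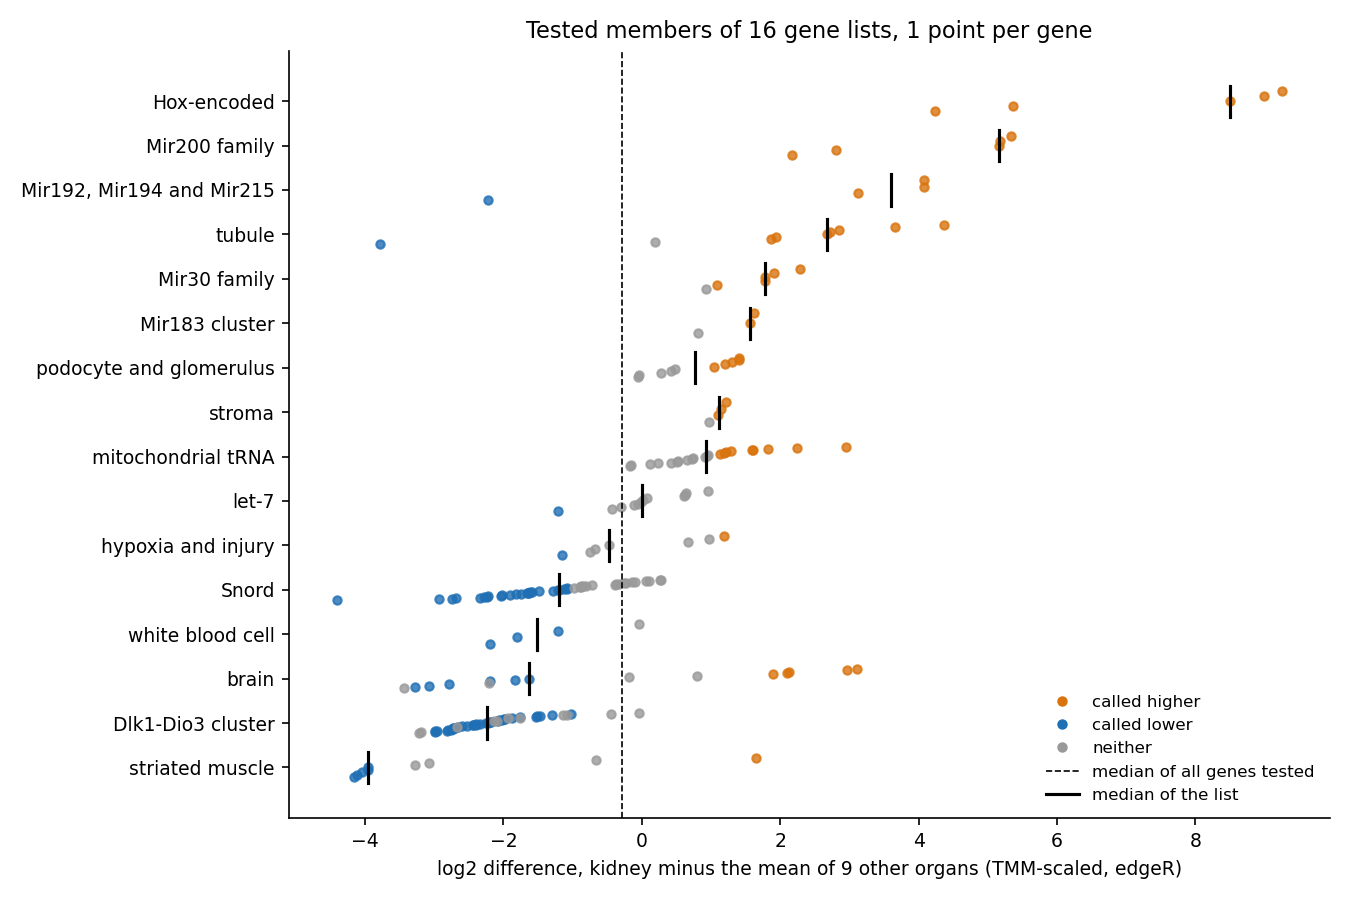
Log2 difference of kidney from the mean of the 9 other organs for each tested gene of 16 lists. Orange points were called higher, blue points lower and grey points neither; the black mark is the list's median and the dashed line the median of all genes tested (-0.29), with list medians from 8.51 for the Hox-encoded miRNAs down to -3.95 for striated muscle; with unscaled totals the medians for podocyte and glomerulus and for mitochondrial tRNA turn to -0.36 and -0.21.

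Lists for glomerular, vascular and stromal cells had medians from 0.50 to 1.12. Of 10 miRNAs listed for podocyte and glomerulus, 5 were called higher (Mir23b 1.40, Mir24-1 1.40, Mir29b-1 1.20, Mir29b-2 1.31 and Mir29c 1.05), and the list median was 0.76. That median turned to -0.36 with unscaled totals, where 0 were higher and 2 lower, and within pool N467 0 of 10 were called. Mir126a, made in endothelial cells, had 2143 to 14323 CPM in kidney with a median of 4720 and a difference of 0.63 that was not called. It was -0.43 with unscaled totals and was called higher within pool N541 alone (1.24). Mir143 and Mir145a, known from smooth muscle, were not called (0.37 and 0.64, with a list median of -0.61 unscaled). Mir143 nevertheless ranked high in kidney, with 22754 to 57571 CPM. Of the stromal Mir199a-1, Mir199a-2, Mir199b and Mir214, 3 were called higher by 1.10 to 1.21, none of them with unscaled totals or DESeq2's size factors. Of 7 miRNAs listed for hypoxia and injury, Mir34a, a target of p53, was higher (1.18 ± 0.27), Mir146, a brake on inflammatory signalling, was lower (-1.16 ± 0.45, adjusted p = 0.03, edgeR), and 5 were not called. The Mir34a call was lost with unscaled totals (0.078), DESeq2's size factors (0.89), its Wald test (0.87), no pool term (0.77) and miRNA genes alone (0.89), and the Mir146 call without kidney 11, 12 or 13. Mir21a (0.67) and Mir146b (-0.47) were among those not called, but within pool N541 alone Mir21a was called higher (1.73) and Mir146b lower (-2.06), the latter also with unscaled totals (-1.69).

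Markers of other organs were low in kidney. The acinar miRNAs Mir216a, Mir216b and Mir217 reached at most 0.18, 0.24 and 0.18 CPM, and most kidney libraries were at 0 for each. The hepatocyte miRNA Mir122 had 0 to 12.8 CPM with a median of 0.70 and was lower by 2.16 ± 0.65 (adjusted p = 0.00371, edgeR), a call not made within pool N541 alone (-2.40). The striated muscle list was lower for 5 of 9 members with a median of -3.95, 1 of them within pool N541 alone, and its sum reached at most 0.00363% of kidney counts. Its 1 higher member, Mir208a, had a mean of 0.54 CPM in kidney and was at 0 in 3 organs. White blood cell miRNAs were lower for 3 of 4 members (Mir142 -1.21, Mir223 -2.19 and Mir150 -1.81). Within pool N541 alone Mir142 (-0.71) and Mir223 (-0.92) were not called. The list summed to 0.0331 ± 0.00983% of kidney counts against 3.00% in spleen and 2.24% in bone marrow. The erythroid list was higher for Mir144 (1.56) and Mir451a (1.43), both lost with unscaled totals, and Mir486, which overlaps Mir3107 on the opposite strand and cannot be separated from it, was not called (-0.32) but was lower with unscaled totals (-1.34). Their part in other kidney results was not tested.

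The brain list did not move as a group. Of its 15 tested members, 6 were lower and 5 higher, with a median of -1.63. Within pool N541 alone 5 were higher and 0 lower with a median of 0.42, and within pool N467 6 of 12 were higher and 3 lower with a median of 0.91. Mir124a-1, the neuronal miRNA, had 0 to 0.47 CPM in kidney and a median of 0. Mir9-2 had 6.67 to 74.0 CPM in kidney with a median of 43.0, and kidney was the organ with the next highest mean after brain, which lay entirely above it. It was called higher than the mean of the 9 organs by 2.10 ± 0.36 and above each of lung, liver, pancreas and spleen in pool N467, by 4.34 over liver (adjusted p = 4.79e-07, edgeR). Mir9-1 and Mir9-3, which give the same mature miRNA, were called likewise (2.13 and 1.90), Mir9-3 not with unscaled totals (0.88). Mir218-1, in an intron of Slit2 and named after its values were seen, had 49.3 to 182 CPM in kidney, above every library of 7 organs and below all of brain, with a difference of 3.11 ± 0.22 (adjusted p = 5.82e-26). Mir128-1, by contrast, was lower by 1.63 ± 0.29, a call lost within pool N541 alone (-0.87), and 4 organs lay entirely above kidney. The sum of the list was 0.0169 ± 0.00515% of kidney counts against 6.26% in brain.

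Among large miRNA clusters, the Dlk1-Dio3 cluster, an imprinted locus active in embryo, placenta and brain, was lower in kidney for 35 of 46 tested members (58 listed), with a median of -2.23. The count for the cluster was 35 under each other scaling of all libraries, 10 of 23 within pool N467, and 6 within pool N541 alone. Of all genes tested, 11.0% were lower within pool N467, and 122 of 940 within pool N541 alone. Mir127 had 4.03 to 86.1 CPM in kidney with a median of 45.7 and was lower by 2.76 ± 0.35 (adjusted p = 1.74e-11, edgeR), and Mir541 was lower by 2.99. The let-7 list, miRNAs of differentiated cells, had a median of 0.00 with 1 of 12 members lower (Mirlet7i, -1.21, not called within pool N541 alone). With unscaled totals 7 were lower, as were 519 of all 1063 genes. In the Mir17-92 family, 5 of 15 members were higher, against 15.9% of all genes. Of these, 4 belong to the X-linked Mir106a cluster: Mir106a (3.17), Mir18b (2.82), Mir20b (3.63) and Mir363 (2.64). Mir20b (chrX:52742113-52742192) had 17.1 to 58.3 CPM in kidney with a median of 32.4, above every library of 7 organs, while spleen had the higher mean. Mir20b and Mir363 were named after their values were seen. Mir92-1 and Mir19b-1 of the founding cluster were not called (-0.30 and 0.13). The list median was 0.50, turned to -0.60 with unscaled totals and was 1.61 in pool N541 alone.

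Against the mean of the other libraries, kidney libraries were rich in miRNA and poor in small nucleolar RNA (snoRNA), the guides of rRNA modification. MiRNAs took 87.2 ± 7.13% of kidney counts against a mean of 74.6% over the other libraries, and 14 of 14 kidneys were higher than the mean of the same animal's other organs. In animals 1 to 10 the mean miRNA share was 84.3% in kidney, 84.2% in brain and 86.6% in muscle, and the remaining organs were below kidney. Outside Mir10a and Mir10b the miRNA share was 67.6% against 72.2%, a difference of -4.67 points that did not pass a permutation test (adjusted p = 0.398 over 7 classes). SnoRNAs took 1.47 ± 0.740% of kidney counts against 8.95%. Kidney was lower than the mean of the same animal's other organs in 14 of 14 animals. The difference of -7.49 points passed the permutation test over libraries (adjusted p = 0.00014). Outside Mir10 it was -5.98 points (adjusted p = 0.0386, permutation test), with the kidney mean (3.85%) above heart (3.32%) and intestine (1.49%) and below the remaining organs. By gene, 58 of all 219 tested genes of the snoRNA class were called lower and 4 higher. Among them, of the 43 tested genes with Snord names, 25 were called lower, with a median of -1.20, and 22 to 40 under the other scalings. Snord83b had 0 to 227 CPM in kidney and was lower by 4.41 ± 0.82 (adjusted p = 2.62e-06, edgeR), and Snord49a was lower by 2.94 ± 0.46. Of 16 tested Snora genes 5 were lower, 4 to 14 under the other scalings and 0 within pool N541 alone. ScaRNAs guide modification of spliceosomal RNA. Of 8 tested genes whose names start with Scarna 3 were lower, and of 13 tested genes of the scaRNA class 2 were lower. By comparison, 20.1% of all 1063 genes tested were lower, and 519 of them with unscaled totals. Within pool N541 alone 122 of 940 genes were lower.

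Mitochondrial tRNAs, encoded in the mitochondrial genome, were called higher in kidney for some members against the 9 organs and for all within pool N467. They took 3.87 ± 2.53% of kidney counts against 3.67% elsewhere, which did not pass (adjusted p = 0.760, permutation test). Heart (13.1%) and brain (4.66%) had higher means of all counts than kidney. Outside Mir10 mitochondrial tRNAs took 10.1% in kidney against 3.97% elsewhere (adjusted p = 0.0113, permutation test), with heart higher at 13.6%. Within pool N467 they took 5.23% of all counts against 3.00% in lung, liver, pancreas and spleen (adjusted p = 0.0212, permutation test). In pool N541, where all 9 organs entered, kidney had the lower value, 0.465% against 1.19%. The difference of -0.727 points did not pass (adjusted p = 0.430, permutation test). Kidney's mean there lay above lung (0.234%), pancreas (0.223%) and spleen (0.160%). It lay below bone marrow (0.503%), intestine (0.532%), liver (0.596%), brain (1.17%), muscle (1.21%) and heart (5.11%). By gene, 9 of 22 were called higher than the 9 organs, with a median of 0.93, which turned to -0.21 with unscaled totals (2 higher and 2 lower). Within pool N467, 22 of 22 were called higher, with a median of 2.30 against 0.15 for all genes, and 9 with unscaled totals. mt-Ts2, a serine tRNA, had 797 to 42210 CPM in kidney with a median of 21903 and was 1.19 ± 0.25 above the 9 organs (adjusted p = 3.36e-05, edgeR) and 2.64 below heart. mt-Tv, the valine tRNA, had 2076 to 43224 CPM with a median of 16506 and was 1.29 ± 0.31 higher. Both calls were lost with unscaled totals and with DESeq2's size factors. Y RNA Rny3, a component of Ro particles, had 20.02 to 1152 CPM in kidney with a median of 236 and was 2.22 ± 0.26 higher, and Rny1 (0.49) was not called.

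**Figure D4:**
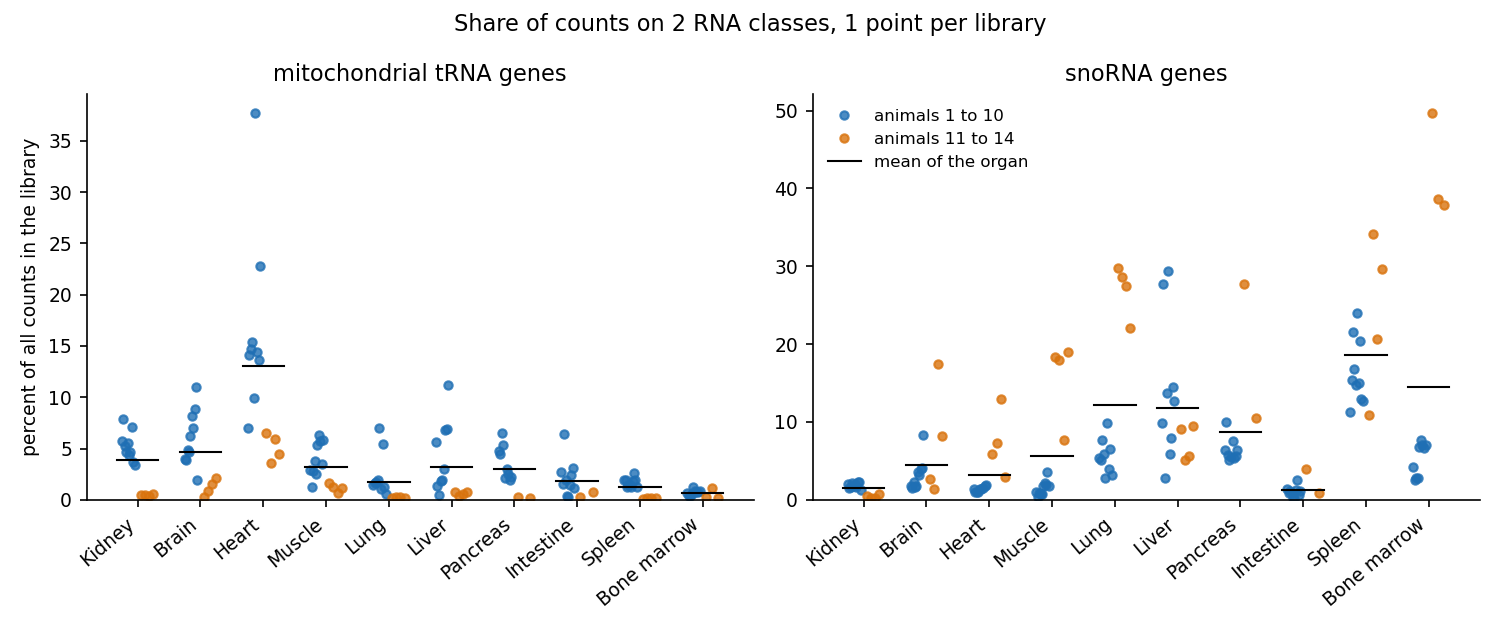
Percent of each library's counts that fell on mitochondrial tRNA and on snoRNA genes in the 10 organs. Points are libraries (blue for animals 1 to 10, orange for 11 to 14) and black bars organ means; in kidney the blue points average 5.23% and 1.88% and the orange points 0.465% and 0.446%.

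No gene was called above each of the 9 organs singly by edgeR (0 genes, 0%, of 1063). At an unadjusted p under 0.05, 5 genes with a difference of at least 1 from every organ were found, and DESeq2's Wald test called 3 of them (Mir10a, Mir196b and Mir3073b). With the animal as a block edgeR called 1, Mir10a (1.66), and with any of 4 other TMM reference libraries it called 2 to 4, Mir10a and Mir190a among them each time. For Mir10a the nearest organ was lung (1.58, adjusted p = 0.0959) and for Mir190a it was brain (1.34, adjusted p = 0.133). For Mir196b muscle was nearest (1.61), for Mir205 lung (1.57) and for Mir3073b liver (1.16), each at an adjusted p of 0.152. Mir3073b, in an intron of Aspg on the opposite strand (chr12:112109250-112109309) and named after its values were seen, had only 5.55 to 35.7 CPM in kidney. Against lung, liver, pancreas and spleen of pool N467, 52 genes (5.74% of 906) were above each of the 4 organs. Of these, 19 were tRNAs, 18 miRNAs, 8 mitochondrial tRNAs, 4 snRNAs, 2 miscellaneous RNAs and 1 a snoRNA. Among the miRNAs were all 5 Hox-encoded genes, Mir190a, Mir874, Mir204, Mir205 and the 3 Mir9 genes. For the Hox-encoded genes the smallest difference ran from 1.61 for Mir10a to 8.77 for Mir196a-2.

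Kidneys of animals 11 to 14 were higher than those of animals 1 to 10 in 58 of 1065 genes tested (5.45%) and lower in 266 (25.0%), with a median of -1.38. Sex, pool and depth all move with this split, and cannot be told apart; the median was -1.01 with DESeq2's size factors and -0.005 in its Wald fit. The mitochondrial tRNAs were lower in 22 of 22, with a median of -3.56. mt-Tg had 2525 to 7993 CPM in animals 1 to 10, with a median of 4542. In animals 11 to 14 it had 35.2, 33.3, 59.2 and 40.1, all below the lowest of the others (-6.92 ± 0.68, adjusted p = 2.14e-12, edgeR). The share of mitochondrial tRNA was also lower in animals 11 to 14 as a mean in each other organ, and 1 of 22 members differed from its change in lung, liver, pancreas and spleen by an interaction term. Snord42b had 179 to 620 CPM in animals 1 to 10 and 6.1, 0, 0 and 4.0 in animals 11 to 14 (-6.88, adjusted p = 2.14e-12). Mir744 went the other way, with 3.8 to 61.5 CPM in animals 1 to 10 and 270, 285, 237 and 207 in animals 11 to 14 (3.33 ± 0.58, adjusted p = 5.85e-06). Mir16-1, of a family that restrains the cell cycle, was 2.07 higher, with 8227, 7392, 7671 and 4400 CPM in animals 11 to 14. Of the 12 let-7 genes 8 were higher, with a median of 1.31, but 2 with a median of 0.38 in a fit of miRNA genes alone. The Hox-encoded list had 0 of 5 called (Mir10a 0.25 and Mir10b -0.43), and 2 of 5 were higher with DESeq2's size factors. In a fit of miRNA genes alone Mir10b was lower (-1.30, adjusted p = 0.0207, edgeR). The erythroid Mir144 was 2.06 higher, with 1565, 1549, 1243 and 914 CPM in animals 11 to 14 against a mean of 316; its part in the other changes was not tested.

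The snoRNA change between animal sets differed in kidney from that in other organs. The snoRNA share was 1.88 ± 0.352% in kidneys of animals 1 to 10 and 0.446 ± 0.239% in those of animals 11 to 14. The mean went from 5.61% to 27.0% in lung, from 6.40% to 19.1% in pancreas and from 16.5% to 23.8% in spleen, and from 13.8% to 7.33% in liver. By the interaction of animal set with kidney against those 4 organs, 2 genes were higher (0.188%) and 72 lower (6.76%), and 24 of 43 Snord genes were among the lower ones, with a median of -2.42 against -0.28 for all genes. Snord49a rose in kidney by 3.04 ± 0.37 from 60.1 to 132 CPM in animals 1 to 10 to 924, 352, 382 and 926 in animals 11 to 14, and its interaction was -3.31 ± 0.51, the mean change of the other organs being larger. Mir15b had 28.3 to 99.3 CPM in animals 1 to 10 and 452, 556, 490 and 203 in animals 11 to 14 (2.92 ± 0.43). Its interaction was 4.37 ± 1.06 (adjusted p = 0.00263, edgeR) and fell to 1.06 without libraries under 100000 counts (adjusted p = 0.16). That of Mir106b was 3.83 ± 0.95 (adjusted p = 0.0033) and 0.66 without those libraries.

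The split of calls against the 9 organs into higher and lower changed with scaling. With plain library totals, of which Mir10a and Mir10b are at least 52.3% in kidney, the median of all genes was -1.31, with 54 genes higher and 519 lower. With both genes left out of the totals and no further scaling the median was -0.16, with 208 higher and 181 lower, and with TMM after leaving them out it was -0.28, with 176 and 218. In the latter, 165 of the 169 higher and 210 of the 214 lower genes kept their call. Calls went higher in 44.1% of cases under TMM, 9.42% with unscaled totals, 53.5% with Mir10 left out and no scaling, and 58.8% within pool N541 alone. No gene called in one direction was called in the other under any of these settings. Between the comparison with 9 organs and that within pool N467, 892 genes were tested in both, of which 129 were higher in both, 83 lower in both and 0 opposite.

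**Figure D5:**
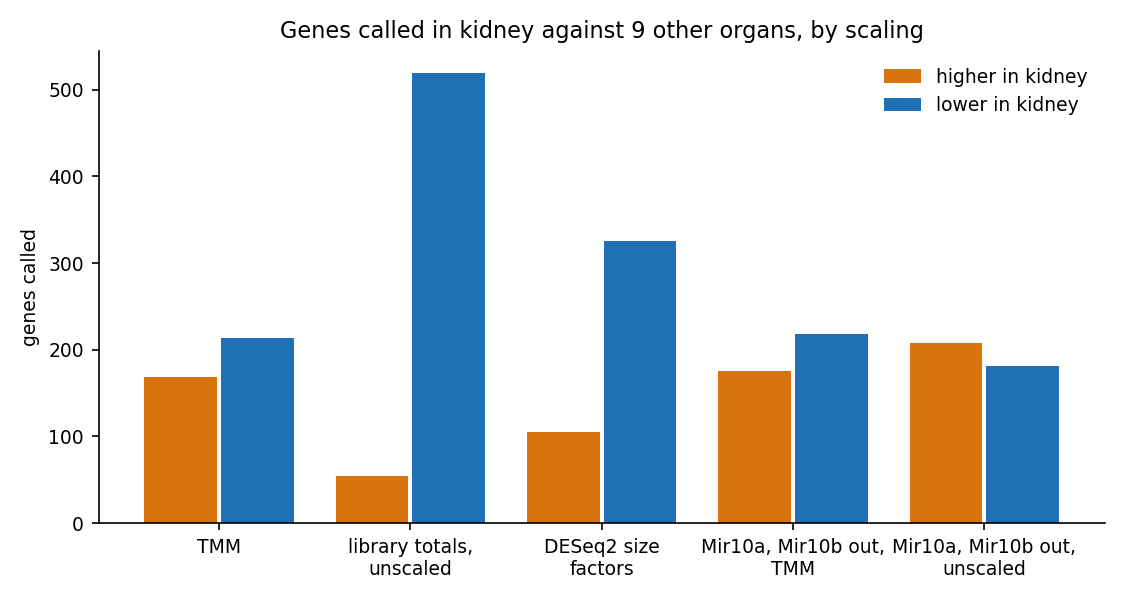
Number of genes called higher (orange) and lower (blue) in kidney against the mean of the 9 other organs, under each way of setting library totals. With TMM the counts are 169 and 214, with plain totals 54 and 519, and with Mir10a and Mir10b left out of plain totals 208 and 181.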

How the data were processed

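Small RNA libraries were made from total RNA with the TruSeq small RNA kit, per the labels' protocols. STAR 2.5.1, featureCounts and the builds mm10 and GRCm38 are named in the submitters' processing notes. What the authors did about strand and reads matching several genes is not given in sources used here. The authors deposited raw counts per gene, 1 column per library, with no normalization. Of 134 columns 130 were used; Pancreas 11 and 3 testis columns were left out.

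Genes were filtered with filterByExpr (minimum count 10), scaled by TMM and tested with edgeR 4.0.16 and limma 3.58.1 in R 4.3.3, with organ and pool as terms. Pool terms are tied together only through the libraries of animals 11 to 14. DESeq2 1.42.0 gave the alternatives with size factors and the Wald test. Class shares were tested with 100000 permutations of the organ label over libraries, 2-sided, and by exact sign flips within animal (smallest p 0.000122), in Python 3.11.15 with scipy 1.17.1. Where nothing says how libraries were replicated beyond the animal number, p-values measure the spread between these libraries. The members and lists were chosen with earlier results of these data known. Genes were named by a rule: the 10 highest in kidney, the 10 most and least different with at least 100 CPM, up to 4 members of each of 27 lists, and the 5 most and least changed between animal sets; exceptions are marked. "At least" folds used 3 counts over the organ, and ratios to Mir215 were given for libraries with more than 3 counts of it, a minimum chosen after seeing the data. The animal numbers in the labels name mice, so same-numbered libraries come from 1 animal; the mean correlation of their deviations between kidney and another organ ran from -0.0296 to 0.335.

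On simulated counts the test recovered 83.9% of genes changed by 1.5 and 100% of those changed by 3.0 on the log2 scale against the 9 organs (1000 genes). For the animal sets it recovered 31.2% and 70.0% (964 genes). Only kidney libraries differed in the simulation, with as many genes raised as lowered and no other organ or pool difference. The percentages cover changed genes that passed the filter. Recovery in the real data, which hold such differences, was not tested and can be lower. Positions are from the GRCm38 annotation; of 6114 table names, 5520 matched as written, 169 after a change of dots to dashes, 377 are tRNA numbers and 48 were not matched.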

Additional observations from a re-analysis of the deposited data

Results flagged for a closer look

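Among 182 sets of kidney values where 1 library could stand apart from the rest of its animal set, 19 did so by Dixon's test. The test marks about 1 in 20 sets by chance only where values are independent and normally distributed. These sets share libraries and scaling factors. For Mir153, Mir216a, Mir381 and Mir490 every other library of the animal set had no count, so any count passes. The 19 sets therefore cannot be compared with that chance rate.

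Kidney of animal 10 was the library apart in 11 sets, all within animals 1 to 10. It had the highest Mir146 (2719 CPM, against 534 to 1557 in the others), Mir155 (65.8), Mir194-1 (335), Mirlet7g (1916), Mirlet7i (1817), Mir541 (40.4), Mir122 (12.8), Rny1 (973) and Snord49a (158), the only Mir216a value above 0 (0.18), and the lowest snRNA share (0.00705%, against 0.0173% to 0.0276%). This library had the lowest TMM factor of the kidneys (0.402), which raises its scaled values. On library totals without TMM it stood apart in 4 of the 10 genes (Mir122, Mir146, Mir216a and Mir541), not in Mir155, Mir194-1, Mirlet7g, Mirlet7i, Rny1 and Snord49a, and its Rny1 was not the highest. Mir146 and Mir155 are immune miRNAs and Mir122 is the hepatocyte marker. The organ comparison called 170 genes higher and 220 lower without this library, against 169 and 214 with it.

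In single genes, kidney 2 had the lowest Mir10b share (25.0%, against 32.1% to 39.4%), kidney 3 the highest Mir124a-1 (0.47 CPM), kidney 6 the highest Mir199b (694 CPM) and kidney 8 the highest mt-Tv (43224 CPM). Within animals 11 to 14, kidney 14 alone had counts of Mir153 (1.77 CPM), Mir381 (1.77 CPM) and Mir490 (0.88 CPM), and kidney 13 alone had none of Scarna9 (0 CPM), which did not stand apart without TMM. Those values near 0 rest on very few counts.

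The change from animals 1 to 10 to animals 11 to 14 was compared between kidney and the mean of lung, liver, pancreas and spleen by a test of the difference itself (edgeR interaction). Of the 2 genes higher and 72 lower, the naming rule gave Mir15b (4.37), Mir106b (3.83), Gm23344 (-4.60), Snord83b (-4.38), Snord110 (-3.60), Snord71 (-3.36) and Snord49a (-3.31), on the log2 scale. Gm23344 is a snoRNA gene in an intron of Rpl4, so 5 of these 7 are snoRNAs. Of all 1065 genes tested 6.76% were lower, and of 175 tested snoRNA genes 37 were. Without libraries under 100000 counts Mir15b fell to 1.06 and Mir106b to 0.66, and neither passed. Both had 0 CPM in pancreas of animals 12 and 13. Sex, pool and depth cannot be told apart here, and their part in the difference was not tested.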

How the results depend on the processing

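Against the 9 organs, 169 genes were higher and 214 lower, of which 103 and 96 were miRNA genes. With unscaled totals the counts were 54 and 519, with DESeq2's size factors 105 and 326, and with its Wald test 104 and 388. A fit of miRNA genes alone gave 83 and 103. Pool N541 alone gave 122 lower. Genes above each of the 9 organs (0) were 1 with DESeq2's size factors, 4 with Mir10a and Mir10b left out and totals unscaled, 3 by the Wald test, 4 among miRNA genes alone, and 3, 4, 2 and 3 with kidney 1, lung 7, muscle 8 and pancreas 5 as TMM reference. Within pool N467, 223 higher became 78 with unscaled totals, and 100 lower became 473 unscaled, 155 with size factors and 220 by the Wald test. Of the 223 and 100, 87 and 53 were miRNA genes, and a fit of miRNA genes alone gave 75 and 67.

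For animals 11 to 14 against 1 to 10, 58 higher became 93 with size factors, 124 by the Wald test and 32 with no low-count filter, and 266 lower became 175 without kidneys 12 and 13. Of the 58 and 266, 53 and 43 were miRNA genes, and a fit of miRNA genes alone gave 8 and 123. For the difference of that change from 4 organs, 2 higher became 12 unscaled, 28 with size factors, 34 by the Wald test, 7 and 12 with Mir10 left out (TMM and unscaled), 1 with no filter, 4 without libraries under 100000 counts, 1 without kidneys 12 and 13, and 6, 8 and 7 with kidney 1, lung 7 and pancreas 5 as reference. Its 72 lower became 46 with Mir10 left out and unscaled, 148 without libraries under 100000 counts, and 29 without kidneys 12 and 13. Of those 72, 6 were miRNA genes, and a fit of miRNA genes alone gave 20 lower.

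The mitochondrial tRNA share difference (0.195 points) passed with Mir10 left out (6.10) and in pool N467 (2.23), where only lung, liver, pancreas and spleen entered. It was -0.727 in pool N541, where all 9 organs entered, and did not pass there. That of miRNA turned to -4.67 with Mir10 left out. The remaining classes below no longer passed: misc RNA (-0.0387 with Mir10 left out, -0.0694 in pool N541), scaRNA (-0.274 and -0.353) and snRNA (-0.0345 with Mir10 left out). With unscaled totals Mir203 went from 1.07 to -0.019 against the 9 organs and Mir141 from 1.06 to -0.26 in pool N467. For the changes above the cause was not tested, except that fewer genes or samples entered some settings.

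With the animal as a replicate block, counts were 167 and 211 against the 9 organs, 222 and 95 in pool N467, and 3 and 77 for the difference of changes. In that setting 1 gene, Mir10a, was above each organ, and the tRNA share difference passed (-4.75 points). The mean tRNA share of kidney (7.32%) was nevertheless above brain (5.00%), heart (4.76%), muscle (7.24%), liver (4.15%) and pancreas (5.40%). It was below lung (12.45%), spleen (12.48%), bone marrow (18.5%) and intestine (41.6%). Leaving out each kidney in turn gave 164 to 181 higher and 195 to 221 lower against the 9 organs, 0 above each, 210 to 232 and 93 to 104 in pool N467, 42 to 59 and 226 to 269 between animal sets, and 2 to 3 and 52 to 75 for the difference of changes. Depth limits animals 11 to 14 most, since kidneys 12 and 13 held 359916 and 301536 counts, so values near 0 there rest on few counts. The TMM references, the settings without kidneys 12 and 13, and those on miRNA genes alone in pool N467 and between animal sets were chosen after seeing the data.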
